A study of Mesocricetus auratus with 9 samples.

Results

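The genes described here are the 200 whose expression varied least over 9 liver libraries from Syrian hamsters (Mesocricetus auratus) taken at 3 stages around hibernation. They were chosen by their measured values: each had a level of at least 20 CPM, that is, 20 counts in every 1000000 counts of its library, in all 9 libraries, and each had one of the 200 lowest coefficients of variation (CV, the standard deviation over the 9 libraries divided by their mean). Of the 17090 genes listed, 4045 reached 20 CPM in every library, and the 200 were taken from those, so 3845 genes of comparable abundance were left outside. All 200 passed the filter on low counts used in the tests.

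The study sampled 3 animals at each stage, and each animal gave 1 library of polyadenylated liver RNA. Summer euthermic animals, outside hibernation, had a mouth temperature of 35.7 ± 0.5 °C. Torpor late animals were sampled deep in a torpor bout at 9.0 ± 0.9 °C, and arousal early animals had been brought out of torpor by handling, after more than 3 days of it, and had reached 35.0 ± 2.1 °C; hibernating animals were housed without light. The labels do not say what those spreads are, and strain, sex and age are not given in the sources used here. Total counts per library ran from 29675688 to 47565345, and no pair of libraries held identical counts.

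Hibernating hamsters let body temperature fall close to that of their surroundings for days and then rewarm within hours, burning stored fuel, and repeat the cycle through the season. The liver supplies glucose, lipids and plasma proteins through these cycles. In the cold, transcription and translation are largely suppressed. Measuring expression by quantitative PCR across such states needs reference genes, whose level relative to total RNA stays the same in every state compared. A reference gene that drifts passes its own drift on to every gene measured against it, which is why several are usually averaged as a geometric mean.

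The table names genes by Ensembl identifier alone, and 0 of the 17090 identifiers, and so 0 of the 200 members, had a match in the RefSeq gene table used to look up symbols. Whether the members include the usual reference genes, ribosomal protein genes or other housekeeping classes was therefore not analysed here, and the liver label could not be checked against marker genes. Nor was it analysed which cell types express them. In whole liver, fewer cells of a type and less RNA per cell cannot be told apart. CPM is also relative to the counts of the same library, so a cell could hold more or less RNA at one stage without any change in CPM. The libraries hold polyadenylated RNA, so a steady CPM is a steady share of those counts. Whether the members are also steady relative to total RNA was not measured.

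The members came from all but the top of the range of abundance open to the rule. Their mean level ran from 22.2 to 4231 CPM, with a median of 54.9 CPM and an interquartile range from 33.7 to 107 CPM. The 4045 genes that reached 20 CPM had a median of 59.0 CPM and reached 100842 CPM. CPM is not divided by transcript length, so these are amounts of reads and not of molecules. When the 4045 genes were split into quartiles of mean level, the members numbered 60, 45, 55 and 40 from the lowest to the highest quartile, or 5.93%, 4.45%, 5.44% and 3.96% of the genes there. At the top of the range they thinned out: 6 members (3%) averaged at least 500 CPM, as did 251 (6.21%) of the 4045, and 2 members averaged at least 2000 CPM, as did 66 of the 4045.

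The members together took 2.56% of all counts. Their share was 2.45%, 2.61% and 2.51% in the 3 summer euthermic libraries, a mean of 2.52 ± 0.0820% (SD, n = 3). It was 2.56%, 2.56% and 2.53% in torpor late (2.55 ± 0.0161%, SD, n = 3) and 2.64%, 2.60% and 2.59% in arousal early (2.61 ± 0.0255%, SD, n = 3). The shares of torpor late libraries lay inside the range of the summer euthermic ones, and summer euthermic replicate 1 had the lowest share of the 9. A single gene contributed 16.5% of the members' counts and the 10 most abundant contributed 45.5%, so a few abundant genes weigh heavily in this summed share.

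**Figure D1:**
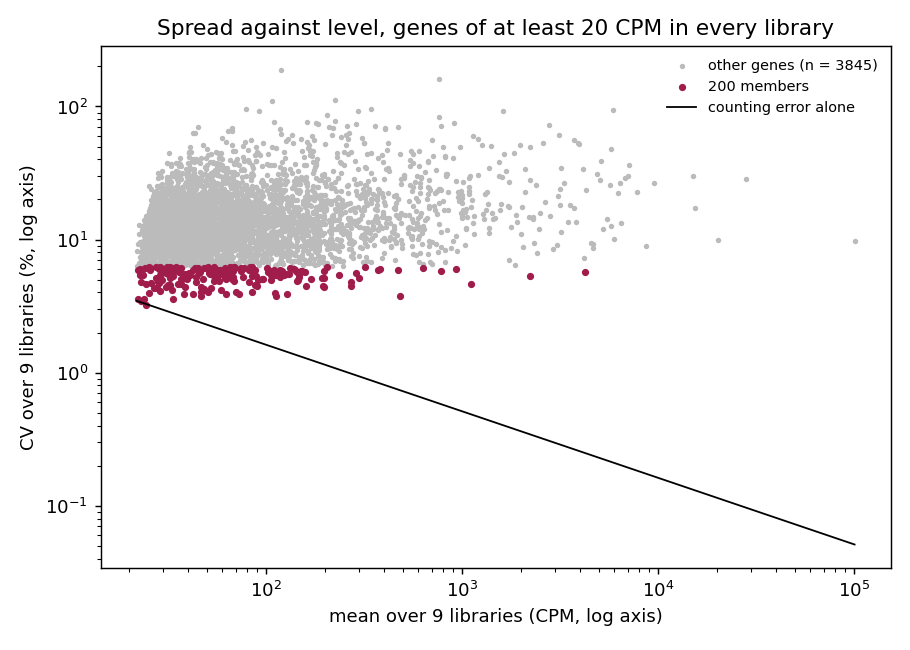
Each point is 1 of the 4045 genes with at least 20 CPM in every library, placed by its mean (CPM, log axis) and its CV over the 9 libraries (percent, log axis); the 200 members are in dark red and the line is the CV that counting alone would give. The members form the lower edge of the cloud at 3.23% to 6.26% and touch the counting line only at its left end.

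The CV of the members, which is the value that chose them, ran from 3.23% to 6.26% with a median of 5.49%. The median over all 4045 genes was 13.1%, and the most variable of them reached 189%. In 15 members the CV was below 4% and in 57 below 5%. Between the lowest and the highest of the 9 libraries a member differed by a median of 1.18-fold and by at most 1.27-fold. The boundary was not sharp: ENSMAUG00000009007, the last member, had a CV of 6.257%, and ENSMAUG00000012852, the first gene outside, had 6.261%.

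Counting error set a floor under these values that depended on abundance. Counting alone would give a member a CV of 2.19% at the median, ranging from 0.249% for the most abundant to 3.44% for the least. The members' CV was a median of 2.48 times its counting value, compared with 6.61 times over the 4045 genes. The rule took low CVs, which by itself favours a low ratio in the members. Below 1.5 times the counting value there were 14 genes, with a median of 25.7 CPM and none above 38.0 CPM. All 14 were members, as the rule required: the counting value was at most 3.46% in any of the 4045 genes. For these 14 the ranking cannot be read beyond the depth of the libraries.

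ENSMAUG00000009284 had the lowest CV of all, 3.23%. It measured 24.7, 23.5 and 25.4 CPM in summer euthermic, 23.9, 25.04 and 24.2 CPM in torpor late and 23.3, 25.4 and 24.1 CPM in arousal early libraries. The 3 stages overlapped throughout, and the stage means of 24.5 ± 0.967, 24.4 ± 0.604 and 24.3 ± 1.06 CPM (SD, n = 3 each) were closer to each other than the animals of any 1 stage. Its counts, between 708 and 1110 per library, would by themselves give a CV of 3.28%, so its spread was no larger than counting error.

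ENSMAUG00000020831 came next with a CV of 3.46%. Its level was 21.2, 22.5 and 23.2 CPM in summer euthermic, 23.5, 23.2 and 22.8 CPM in torpor late and 23.9, 23.6 and 23.5 CPM in arousal early. The 3 arousal early libraries lay above the other 6, but only just: arousal early replicate 3 had 23.47 CPM and torpor late replicate 1 had 23.45 CPM. Stage means were at most 1.06-fold apart. Without summer euthermic replicate 1, its lowest library, the CV was 1.88%. Counting alone would give this gene a CV of 3.38%, so neither its CV nor this order of libraries can be read beyond counting error.

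The most abundant member, ENSMAUG00000021903, averaged 4231 CPM. It measured 3948, 4279 and 3859 CPM in summer euthermic, 4294, 4174 and 4193 CPM in torpor late and 4611, 4534 and 4187 CPM in arousal early libraries. With at least 127421 counts in every library its counting error was 0.249%, so practically all of its CV of 5.72% came from elsewhere. Arousal early replicate 3 lay among the torpor late libraries and the other arousal early libraries lay above every other library.

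Spread within a stage outweighed spread between stages in the set as a whole. The pooled CV among animals of one stage was a median of 5.25% for the members, and the CV of the 3 stage means was a median of 2.96%. Averaging 3 animals with that within-stage spread would on its own leave the stage means a CV of 3.03%, and the stage means of 95 of the 200 members (47.5%) varied more than their own within-stage spread would give. Over the 4045 genes the corresponding medians were 10.97% within stages and 8.90% between them, and 65.4% of genes exceeded the value from their own within-stage spread. A low CV over all 9 libraries requires both parts to be low, so these figures describe the choice and are no test of it.

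The members were steady to a similar degree at each stage. Their median CV among the 3 animals of a stage was 5.19% in summer euthermic, 4.64% in torpor late and 4.15% in arousal early. The same median over the 4045 genes was 9.43%, 11.02% and 8.42%. The stage with the highest mean was summer euthermic for 66 members, torpor late for 68 and arousal early for 66, and the stage with the lowest mean was summer euthermic for 72, torpor late for 58 and arousal early for 70. Over the 4045 genes summer euthermic was highest in 37.5% and lowest in 40.9%, and torpor late was highest in 28.6% and lowest in 27.0%.

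Stage means of the members differed little in either direction. Torpor late relative to summer euthermic, the comparison of 9 with 35.7 °C, gave log2 ratios from -0.15 to 0.17 with a median of 0.00, and 196 members lay within 1.1-fold. Over the 4045 genes 44.1% lay within 1.1-fold and the largest difference was 6.32-fold. Arousal early relative to torpor late gave -0.16 to 0.15, and relative to summer euthermic -0.18 to 0.16, with 195 members within 1.1-fold in each. The stage means of a member were at most 1.13-fold apart. The 3 comparisons share libraries, and the rule used all of them.

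Some members nonetheless separated the stages without overlap. The 3 torpor late libraries lay wholly above or below the 3 summer euthermic ones for 15 members (7.5%), while this held for 25.3% of the 4045 genes. Arousal early and torpor late libraries did not overlap for 27 members (13.5%), against 14% of the 4045 genes. Arousal early and summer euthermic libraries did not overlap for 27 members, against 34.2%. Since the rule limits differences between stages, nothing is read from these shares about the members.

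ENSMAUG00000014557 had the largest fitted difference between any pair of stages. It measured 190.4, 194.4 and 184.6 CPM in summer euthermic, 187.9, 196.5 and 201.8 CPM in torpor late and 209, 221 and 207 CPM in arousal early. All 3 arousal early libraries stood above the other 6, while summer euthermic and torpor late overlapped. Arousal early exceeded summer euthermic by 0.18 (SE 0.10) on the log2 scale, which was not called (edgeR quasi-likelihood, adjusted p = 0.302; 0.259 to 0.552 over 17 alternatives).

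**Figure D2:**
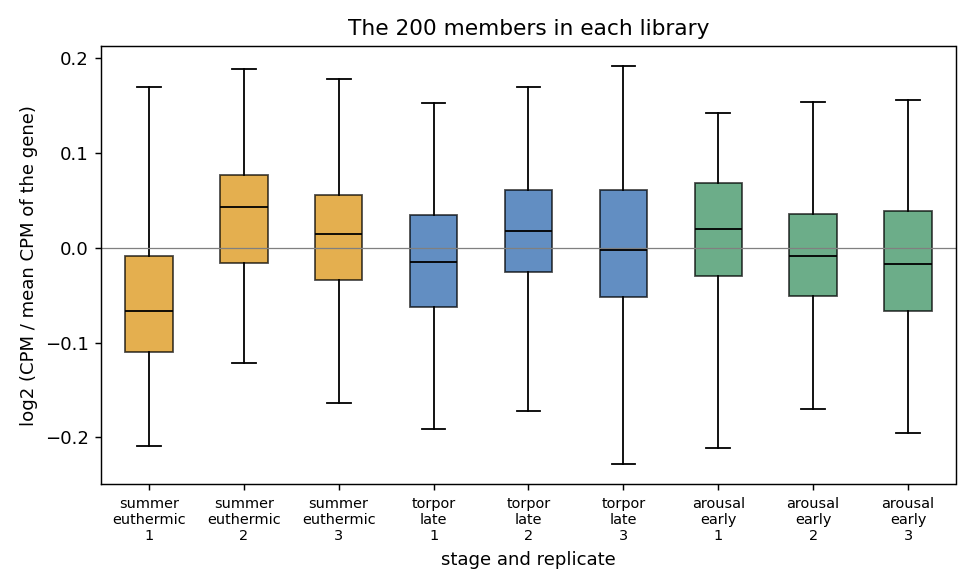
For each library, the box gives the quartiles and the median, and the whiskers the lowest and highest values, of log2(CPM / mean CPM of the gene) over the 200 members. Medians lie between -0.07 in summer euthermic replicate 1 and 0.04 in summer euthermic replicate 2, and the 6 libraries of the hibernating animals lie between these.

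By the signed median over the members, the libraries furthest from 0 were summer euthermic replicates 1 and 2; by the median absolute departure they were summer euthermic replicate 1, at 0.0735 on the log2 scale, and torpor late replicate 3, at 0.0584. Summer euthermic replicate 1 was the lowest of the 9 libraries for 58 of the 200 members and lay below the gene's mean for 158. Summer euthermic replicate 2 was the highest for 44 members and the lowest for 3. The median of the 4045 genes was displaced the same way, by -0.08 in summer euthermic replicate 1 and 0.04 in summer euthermic replicate 2 on the log2 scale. The largest departure of any member in any library was 1.17-fold, in torpor late replicate 3.

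The members were then looked up in a model fitted across all genes. By the quasi-likelihood F test of edgeR, adjusted by Benjamini and Hochberg's method, 0 of the 200 members were called among the 3 stages (253 of 12780 genes, 1.98%, were called) and the smallest adjusted p of a member was 0.368. None was called in torpor late against summer euthermic (1.37% of all genes called), in arousal early against torpor late (0%) or in arousal early against summer euthermic (3.81%). The number of members with an unadjusted p-value under 0.05 was 0 in each of the 4 edgeR tests, and also in limma-voom, which called 0. DESeq2 called 0 members, with 1 and 2 members at an unadjusted p-value under 0.05 in the comparisons of torpor late and of arousal early with summer euthermic. The rule removes genes that differ between stages, so these counts carry no evidence about the members. Over all genes, edgeR called 0 between arousal early and torpor late, where 956 had an unadjusted p-value under 0.05, and DESeq2 called 81. In the edgeR test among the 3 stages, 21.6% of all genes had an unadjusted p-value under 0.05. For the 3 pairs of stages, in the order above, the edgeR shares were 21.5%, 7.48% and 23.0%. The same 4 shares were 21.6%, 21.2%, 7.496% and 23.0% in limma-voom and 24.1%, 21.7%, 8.09% and 23.6% in DESeq2.

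The fitted intervals are given as a description too, since the choice of the members places their fitted differences near 0. The fitted 95% interval of the torpor late against summer euthermic difference lay wholly within 1.5-fold for 200 members and within 1.2-fold for 97. Both numbers were the same for arousal early against torpor late, and for arousal early against summer euthermic they were 200 and 84. Over the 4045 genes 67.4% of intervals lay within 1.5-fold and 5.66% within 1.2-fold for torpor late against summer euthermic. The widest bound of any member was 1.34-fold. The gene-wise dispersion of edgeR gave a biological CV of 12.0% for the median member. That estimate used TMM scaling and draws each gene towards the spread of genes of like abundance. The members' own CV beyond counting error was 5.03% at the median, but it used column totals, under which they were chosen for low CV. What each of these adds to the gap was not tested.

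Whether genes chosen as steady stay steady in animals that played no part in the choice was examined by leaving out a stage. The same rule was applied to the 6 libraries of 2 stages, and the 200 genes found were then measured in the 3 libraries of the remaining stage. Only the choice made without torpor late leaves out a temperature, since summer euthermic and arousal early animals were at 35.7 and 35.0 °C. Temperature and hibernation stage cannot be told apart in it.

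Genes chosen in the 35.7 and 35.0 °C animals held their level at 9.0 °C more closely than abundant genes in general. Of 200 genes chosen in summer euthermic and arousal early libraries, 198 lay within 1.2-fold and 155 within 1.1-fold of their mean there when measured in torpor late. The median departure was 0.07 on the log2 scale and the largest was 1.24-fold. Of all 4136 genes with at least 20 CPM in the same 6 libraries, 86.2% lay within 1.2-fold and 59.3% within 1.1-fold, with a median departure of 0.11. Of the 200, 103 were higher and 97 lower in torpor late, and 97 of them belonged to the members.

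Leaving out arousal early gave a similar result, and leaving out summer euthermic gave larger departures. Genes chosen in summer euthermic and torpor late lay within 1.2-fold in arousal early in 195 of 200 cases (79.7% of 4133 genes), with a median departure of 0.08. Genes chosen in the hibernating animals alone lay within 1.2-fold in summer euthermic in 172 of 200 cases (69.6% of 4182 genes), with a median departure of 0.12 and a largest one of 1.43-fold. The CV that chose these last genes was the lowest of the 3 choices, at a median of 3.95%, and became 6.68% with the summer euthermic libraries included. Whether the 3 left-out stages differ in this respect was not tested.

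**Figure D3:**
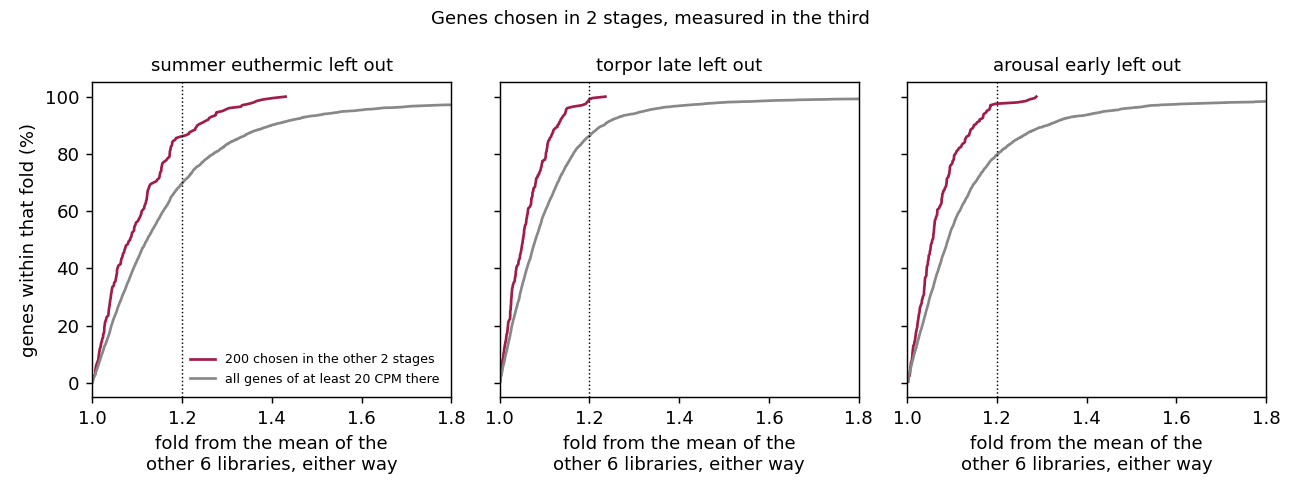
Each panel leaves out 1 stage and plots the share of genes (percent) whose mean in the left-out stage lies within a given fold, in either direction, of their mean in the other 6 libraries; the axis ends at 1.8-fold and the dotted line marks 1.2-fold. The red curves (200 genes chosen without that stage) reach 86%, 99% and 97.5% at 1.2-fold, and the grey curves (all genes of at least 20 CPM there) reach 69.6%, 86.2% and 79.7%.

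The 3 choices shared few genes. Together they named 476 genes, of which 37 were in all 3, and all 37 were members. These 37 had means from 22.2 to 482 CPM with a median of 48.1 CPM, and their CV over the 9 libraries was at most 4.90%. Their stage means were at most 1.09-fold apart, a description of genes picked on these same libraries.

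The 200 genes were also read as a set in the left-out stage. The geometric mean of the 200 genes chosen without torpor late was 0.973, 1.01 and 0.993 times its value in the other 6 libraries in torpor late replicates 1, 2 and 3. In the 6 libraries that chose them it ran from 0.977 to 1.01. The set chosen without arousal early stood at 1.02, 1.01 and 0.984 in the arousal early libraries. The set chosen without summer euthermic stood at 0.944, 1.05 and 0.998, and its values in the 6 libraries of hibernating animals were from 0.991 to 1.01. The set chosen without arousal early ran from 0.978 to 1.01 in its own 6 libraries. In each left-out stage at least 1 library thus lay outside the range of the libraries used for the choice: torpor late replicate 1, arousal early replicate 1, and summer euthermic replicates 1 and 2. For all genes of at least 20 CPM in the same 6 libraries, the same ratios were 0.965, 1.01 and 0.959 in torpor late, 1.01, 1.004 and 0.959 in arousal early and 0.934, 1.01 and 0.965 in summer euthermic.

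Shortlists of the size used in quantitative PCR were compared with the full set. Scaled by column totals, the first 10 genes departed further from 1 than the 200 did in all 6 summer euthermic and arousal early libraries and in 2 of the 3 torpor late ones. The 10 genes of lowest CV in summer euthermic and torpor late stood at 0.911, 0.934 and 0.919 in the 3 arousal early libraries, and the first 3 of them at 0.842, 0.932 and 0.918. All 3 animals were thus on the same side, by more than the 200 genes showed in any of them. This direction depended on the scaling: with TMM scaling, which finds a factor per library from the bulk of genes, the 10 genes then chosen stood at 1.01, 1.06 and 1.07. For torpor late the 10 genes chosen in the other stages stood at 1.002, 1.06 and 1.04 and the first 3 at 0.991, 1.03 and 1.01. For summer euthermic the first 3 stood at 0.998, 1.14 and 1.12.

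**Figure D4:**
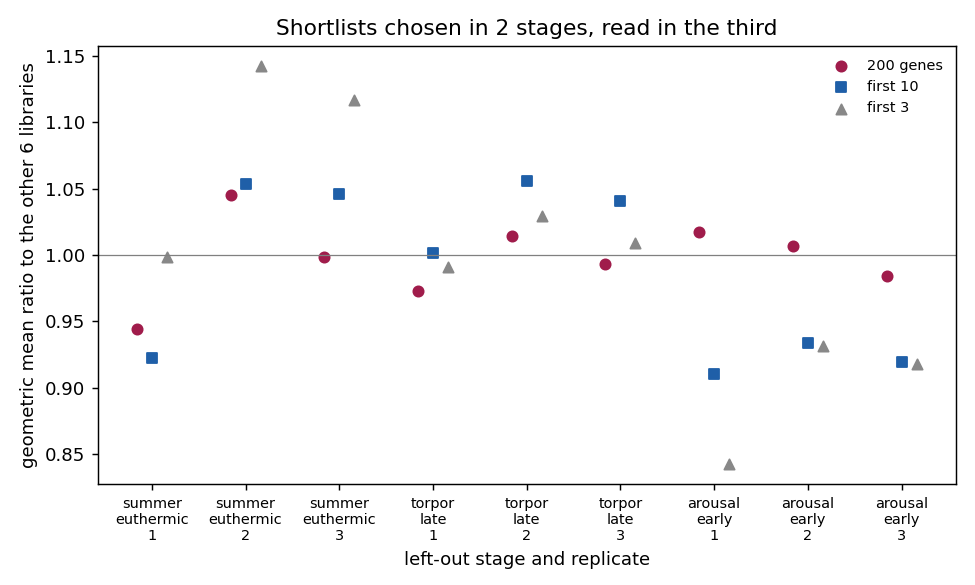
For each library of a left-out stage, the points give the geometric mean of the 200 genes, the first 10 and the first 3 chosen in the other 2 stages, as a ratio to their mean in those 6 libraries. The 200 genes stay between 0.944 and 1.05, while the first 3 run from 0.842 to 1.14.

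Ratios between members were also compared, since a reference gene is used as a ratio. The log2 ratio of 2 members had a standard deviation over the 9 libraries of 0.10 at the median of the 19900 pairs, from 0.02 for the steadiest pair to 0.17 for the least steady. Averaged over its 199 partners, a member's value ran from 0.08 to 0.13, with a median of 0.10. Of the 20 members with the lowest CV, 12 were also among the 20 with the lowest averaged pair value. The correlation between 2 members over the 9 libraries was a median of 0.11, with an interquartile range from -0.15 to 0.37. It is a description over 9 libraries, and all genes of a library are scaled by the same total.

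Scaling every library by the members gave factors close to those from column totals. The geometric mean of the 200 members, relative to each gene's mean, was 0.963, 1.02 and 1.01 in summer euthermic, 0.991, 1.01 and 0.999 in torpor late and 1.01, 0.995 and 0.990 in arousal early. By stage this was 0.998 ± 0.0319, 1.0004 ± 0.0104 and 0.998 ± 0.0104 (SD, n = 3 each), so that torpor late differed from the other stages by less than the animals did. The highest library exceeded the lowest by 1.06-fold. It was 1.02-fold when summer euthermic replicate 1, the lowest library, was left out of both the choice and the libraries compared. The members were chosen for constant CPM, which pulls these factors towards 1.

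Factors computed without regard to the members spread further. The highest TMM factor exceeded the lowest by 1.12-fold, and the RLE factors, which use the median ratio over genes, by the same. Arousal early replicate 3 had a TMM factor of 0.937 and a member factor of 0.991, a difference of 5.79%, the largest of the 9. Torpor late replicate 3 differed by 3.71% in the same direction and torpor late replicate 2 by -3.14%. By stage the TMM factors were 1.01 ± 0.0359 in summer euthermic, 1.002 ± 0.0407 in torpor late and 0.994 ± 0.0516 in arousal early (SD, n = 3 each), again closer between stages than between animals.

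**Figure D5:**
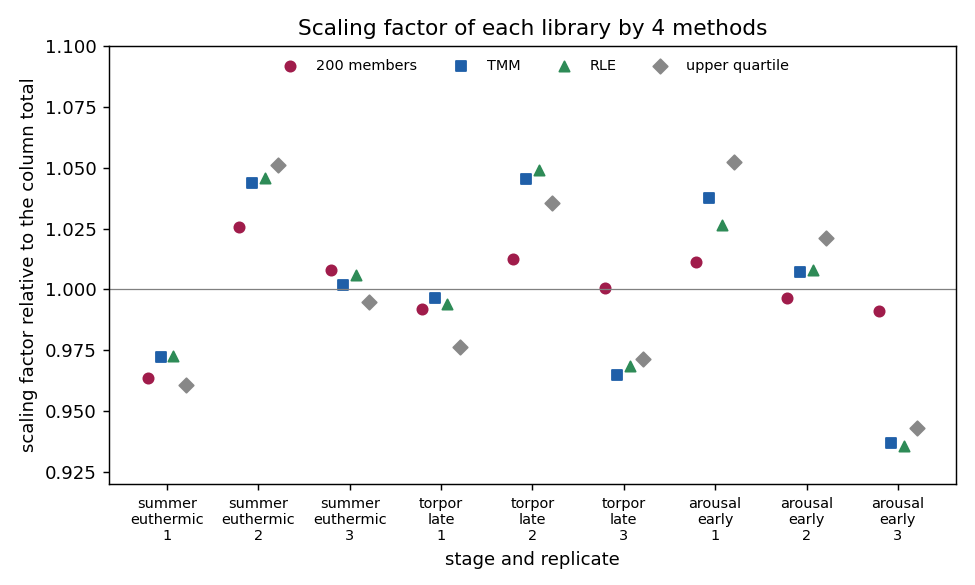
Scaling factor of each library relative to its column total, from the geometric mean of the 200 members, TMM, RLE and upper-quartile scaling, each set to a geometric mean of 1. In arousal early replicate 3 the members' factor of 0.991 lies above the TMM factor of 0.937, the widest such gap of the 9 libraries.

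The scaling decided in part which genes ranked as steadiest. With TMM-scaled CPM the same rule returned 128 of the 200 members, with RLE 123 and with upper-quartile scaling 116. ENSMAUG00000009284, first by column totals at 3.23%, had a CV of 5.12% with TMM. When the members' factor replaced TMM in the edgeR fit of all genes, torpor late against summer euthermic gave 157 called genes, of which 141 were among the 175 called with TMM, and arousal early against summer euthermic gave 465, of which 410 were among 487. The median log2 difference of all genes moved by -0.01 and -0.02 in those comparisons. Arousal early against torpor late had 0 called genes with either scaling, with 941 genes at an unadjusted p-value under 0.05 in edgeR under the members' factor.

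Single animals weighed on the membership. Leaving out 1 library and choosing again returned between 129 members (without torpor late replicate 3) and 169, and 98 of the 200 were chosen every time. The libraries also divide into 4 and 5 across the stages, a division seen in 7 of the 9 genes with a gap of at least 10-fold between libraries. One side holds arousal early replicates 1 and 2 with torpor late replicate 1 and summer euthermic replicate 2. Members differed between those sides by a median of 0.04 on the log2 scale in absolute value and by at most 0.13, and the 4045 genes by a median of 0.12.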

How the data were processed

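Libraries were stranded, poly(A)-selected and read from a single end to 75 bp from 437 ng of RNA, per the labels' protocols. The authors deposited raw read counts per Ensembl gene, as whole numbers. STAR 2.7.0f is named in the submitters' processing notes; the counting program, strand setting, build and annotation are not given in the sources used here, so overlapping genes and near-identical copies may share reads.

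Stages came from the labels. CPM used column totals. The members, the gene lists and the tests were chosen with earlier results of these data known. Identifiers named were the members of the 2 lowest CVs, of highest mean, of the largest fitted change and at the rule's limit, with the first gene outside. The 14 gene lists and 7 marker lists set up need symbols and were not run.

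Counts were fitted in R 4.3.3 with edgeR 4.0.16 (filterByExpr, TMM, glmQLFit, glmQLFTest; 12780 genes; 1 coefficient per stage over all 9 libraries; Benjamini-Hochberg adjusted p under 0.05). Standard errors are the absolute log2 fold change over the square root of F. Alternatives were other scalings, DESeq2 1.42.0, limma-voom (limma 3.58.1), other filters and leaving out each library. The fit and the rule were tested on simulated data.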

Additional observations from a re-analysis of the deposited data

How the results depend on the processing

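Which genes count as steadiest depended on the settings more than their values did. Of the 200 members, 128 were chosen again with TMM, 123 with RLE and 116 with upper-quartile scaling. Ranked by the within-stage spread, 89 were chosen again. In 2 stages without summer euthermic, torpor late and arousal early, the numbers were 84, 97 and 114. A minimum of 50 CPM kept 100, but it changes no gene's CV. It only removes members that fell below 50 CPM in some library, so this number says nothing about their rank. Leaving out each replicate kept 129 to 169.

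The median CV of the genes chosen was 5.30% with upper-quartile scaling, 6.59% with the within-stage spread, 6.26% at 50 CPM, 5.24% at 1 CPM, and 3.95%, 4.45% and 4.63% in 2 stages without summer euthermic, torpor late and arousal early. It was 4.96% to 5.46% over the choices that left out each replicate, in which the share of all counts was 2.13% to 3.22%.

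The highest over the lowest reference factor was 1.09 with the first member alone, 1.05 with 3, 1.04 with 10, 1.05 with 50, 1.08 with the median of ratios and 1.08 with the sum of CPM, and 1.02 to 1.06 leaving out each replicate. Torpor late over the other stages was 1.01 with 3 members and 0.995 to 1.004 leaving out each replicate.

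Median departures in a left-out stage changed by less than the spread between animals with TMM and with minimums of 10 or 50 CPM. Leaving out each replicate, added after the data were seen, gave 0.11 to 0.14 for summer euthermic, 0.07 to 0.10 for torpor late and 0.0699 to 0.0926 for arousal early, with 165 to 175, 189 to 199 and 183 to 195 genes within 1.2-fold. The 10-gene shortlists had no stable direction: over 13 settings every arousal early library was below 1 in 7, and values ran from 0.879 to 1.08. Both counts include the settings that left out an arousal early replicate. Those settings keep the main choice of genes and repeat its values, so the 13 are not separate choices.

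Members called stayed at 0 under every alternative run, covariate and left-out replicates included. Calls over all genes among the 3 stages were 1458 with DESeq2 and 5 to 216 leaving out each replicate. For torpor late against summer euthermic they were 96 with column totals alone, 1067 with DESeq2, 410 with the division of the libraries as a covariate (added after the data were seen) and 0 (without torpor late replicate 2) to 313. For arousal early against torpor late they were 3 without a filter, 81 with DESeq2, 1 with the covariate and 0 to 2. For arousal early against summer euthermic they were 1332 with DESeq2 and 30 (without arousal early replicate 2) to 443. The cause was not tested.

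For the named genes, 65 of 89 further values stayed within their spread or on their side of the threshold, 24 moved and none reversed. No paired analysis was possible because each library came from a different animal and the labels, which carry no replicate numbers, name no pairing.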

Other observations

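Steadiness among animals of one stage did not go with steadiness between stages in every gene. When the 200 genes were chosen by their pooled within-stage spread alone, which does not use the stage means, 89 were members. Their median CV was 4.40% within stages and 6.16% between the 3 stage means, and 46 of them (23%) had stage means more than 1.2-fold apart, up to 1.53-fold. Over the 4045 genes 45.2% had stage means more than 1.2-fold apart and the median CV of the stage means was 8.90%. No member's stage means were that far apart, by the construction of the rule.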
